A study of Rattus norvegicus with 8 samples.

Results

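The genes described here are 10 genes of the integrated stress response and of amino acid synthesis: Atf4, Ddit3, Trib3, Chac1, Sesn2, Vldlr, Asns, Phgdh, Psat1 and Ass1. They were taken by symbol from the 30560 genes of a count table of rat thyroid, and each gene was represented by the transcript with the highest summed count. All 10 were found, and all 10 passed the filter on low counts in every comparison. The 8 samples were thyroids of male Wistar rats, and each sample came from a different rat. Rats at the age of 1 week received cervical X-rays at 4 Gy (1w4Gy) or sham irradiation (1w0Gy), and rats at 4 months received 4 Gy (4m4Gy) or sham irradiation (4m0Gy). The thyroid was taken 8 weeks after exposure. Each of the 4 groups had 2 samples, chosen by the study from a larger set for higher RNA integrity, so p-values measure the spread between 2 rats per group.

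The integrated stress response starts with kinases that phosphorylate the translation factor eIF2α when amino acids run short, when unfolded proteins gather in the endoplasmic reticulum (ER), or under other stresses. General translation falls, while translation of the transcription factor ATF4 increases. ATF4 then acts on genes for amino acid synthesis, amino acid transport and tRNA charging, and on Ddit3 and Trib3, which are known for their part in cell death and in feedback on the response. The thyrocyte secretes thyroglobulin in large amounts, and its ER folds much protein. Since ATF4 is controlled largely through translation, an mRNA level is no measure of its activity.

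ATF4 dimers bind a composite element of C/EBP and ATF half-sites, whose core is commonly written TGATGNAA. The 250 bases before the start of each member, in the RefSeq annotation of the rat build GRCr8, were searched for these letters on both strands. A promoter was found for 10 of 10 members, and the letters were present in 2 of them, Chac1 and Trib3. They were present in 3.4% of all 33469 promoters of that length. In Chac1 they lay from -167 to -160 and in Trib3 from -21 to -14 relative to the annotated start, both on the antisense strand. A match is a description of these letters and not of a binding site, and the absence of a match covers these 250 bases alone. These 2 sequences are shown for the match, in capitals, and that of Ass1, which holds no match, is shown because Ass1 varied most between the samples. Chac1 lies on the + strand (chr3:126795881-126796130), Trib3 on the - strand (chr3:161275534-161275783) and Ass1 on the + strand (chr3:35149480-35149729). Each is written 5′ to 3′ along its gene.
Chac1: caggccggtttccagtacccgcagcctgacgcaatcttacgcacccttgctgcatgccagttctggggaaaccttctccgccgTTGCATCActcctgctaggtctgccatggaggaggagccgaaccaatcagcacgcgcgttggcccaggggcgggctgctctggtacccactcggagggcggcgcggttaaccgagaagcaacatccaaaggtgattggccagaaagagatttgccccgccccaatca
Trib3: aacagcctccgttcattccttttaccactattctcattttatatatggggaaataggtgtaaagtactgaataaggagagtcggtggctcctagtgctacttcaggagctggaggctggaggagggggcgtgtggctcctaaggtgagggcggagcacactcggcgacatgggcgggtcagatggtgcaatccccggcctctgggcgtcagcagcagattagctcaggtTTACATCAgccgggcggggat
Ass1: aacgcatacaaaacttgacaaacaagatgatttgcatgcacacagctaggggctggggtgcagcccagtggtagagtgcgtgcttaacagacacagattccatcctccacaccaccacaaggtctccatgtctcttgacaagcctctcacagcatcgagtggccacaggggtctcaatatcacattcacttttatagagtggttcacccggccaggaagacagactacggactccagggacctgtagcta

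The samples held 14835406 to 18138106 counts on genes. Thyrocyte markers (7 of 7 in the table, among them Tg and Pax8) summed to 184700 to 218900 CPM (counts scaled to a common library size), which matches the labelled tissue. Other cells were present as well. The parathyroid list of 4 genes summed to 345 CPM in 4m4Gy sample 2 and to 1956 to 5522 CPM in the other 7 samples. The part of this difference in the comparison at 4 months was not tested. The lymphocyte list stayed between 0.81 and 2.101 CPM. The cartilage and trachea list (4 of 5 genes in the table) summed to 215 to 252 CPM, while its cartilage marker Matn1 was at 0 in all samples. In whole tissue, fewer cells of a type and less RNA per cell cannot be told apart. Cdkn1a, the p53 target that encodes the cell cycle inhibitor p21, served as a check of irradiation. Its level was 15.1 and 14.4 CPM in 1w0Gy, 46.6 and 38.5 CPM in 1w4Gy, 17.4 and 15.4 CPM in 4m0Gy, and 46.4 and 38.1 CPM in 4m4Gy, and it passed the test at both ages (edgeR adjusted p = 0.0329 and 0.015), though not with summed transcripts (0.295 and 0.147).

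Compared per transcript length, in the unit TPM, the members spanned a wide range. The mean over the 8 samples was 236 TPM for Psat1 and 118 TPM for Atf4, whose ranges overlapped neither each other nor that of the next gene. Phgdh followed at 45.1, Ddit3 at 26.7, Sesn2 at 19.01, Asns at 15.6 and Ass1 at 11.2 TPM, and in this order each range overlapped that of its neighbour. Vldlr at 2.12 and Trib3 at 1.63 TPM overlapped each other, and Chac1 was lowest at 0.50 TPM. The enzymes of serine synthesis and Atf4 were thus the most abundant members, and the genes usually used as reporters of an acute response (Trib3, Chac1) were near the lower end. Chac1 rested on 8 to 19 counts per sample, and the exact Poisson 95% intervals of these counts were 3.45 to 15.8 at 8 counts and 11.4 to 29.7 at 19 counts, for counting error only.

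**Figure D1:**
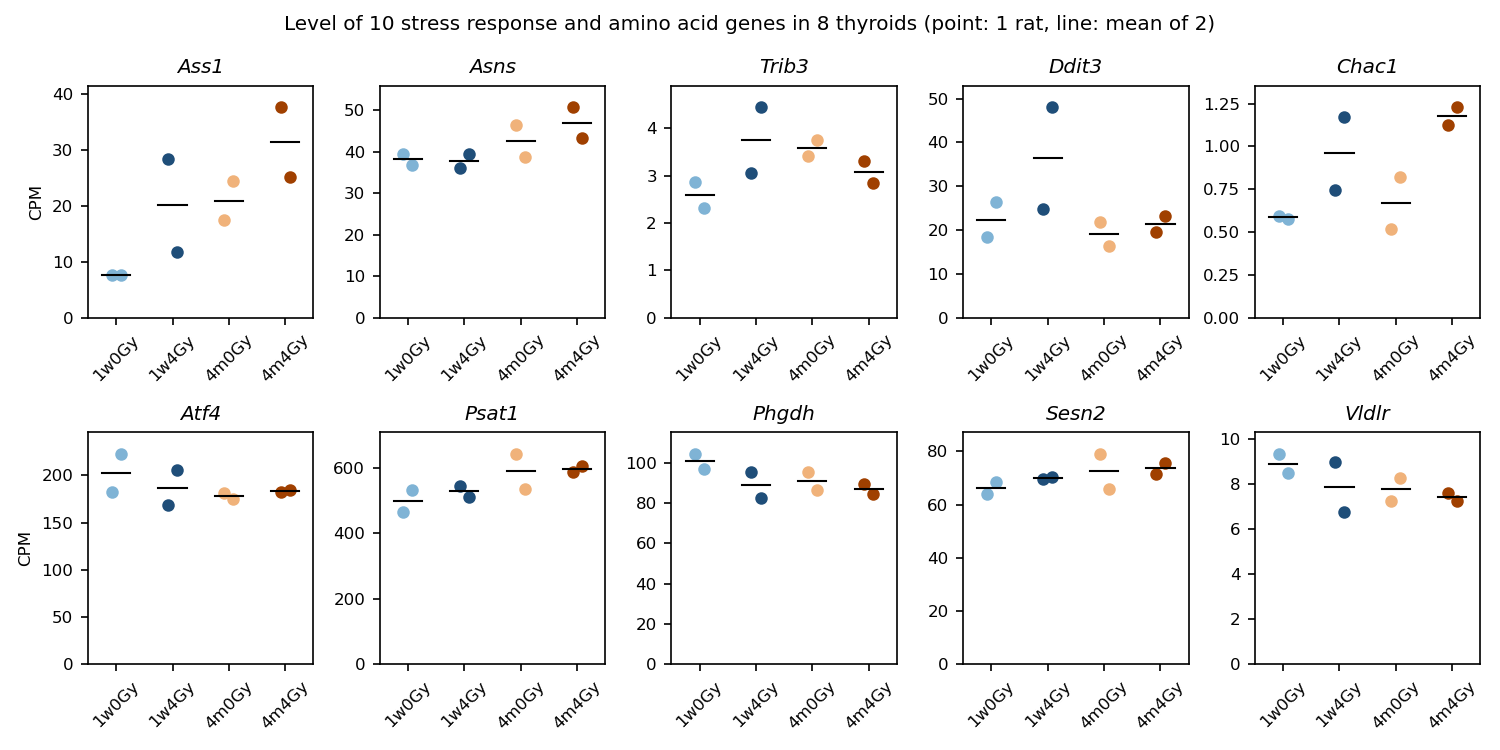
Level of each member in CPM (vertical axis, from 0, linear) in the 4 groups (horizontal axis), with each point a rat and each line the mean of 2. Ass1 was lowest in both 1w0Gy samples (7.61 and 7.58 CPM) and highest in 4m4Gy sample 1 (37.6 CPM), and the point of Ddit3 at 48.1 CPM is 1w4Gy sample 2.

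Ass1 was the member that differed most between the groups. It encodes argininosuccinate synthase, which joins citrulline and aspartate in the synthesis of arginine. The 1w0Gy samples had 7.61 and 7.58 CPM, the 1w4Gy samples 28.4 and 11.7 CPM, the 4m0Gy samples 17.4 and 24.4 CPM, and the 4m4Gy samples 37.6 and 25.2 CPM. The group means were 7.60 ± 0.017, 20.1 ± 11.7, 20.9 ± 4.92 and 31.4 ± 8.80 CPM (SD, n = 2 each). Both 1w0Gy samples lay below all other samples, the ranges of 1w4Gy and 4m0Gy overlapped, and 4m4Gy lay above 4m0Gy. The 1w0Gy samples were close to each other relative to counting error, with 141 counts (exact Poisson 95% interval 119 to 166) and 131 counts (110 to 155).

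In sham-irradiated rats, Ass1 was the member that passed the test for age (1 of 10, against 1.06% of the 15364 genes tested; at an unadjusted p under 0.05, 1 of 10 against 17.8%). It was higher in 4m0Gy than in 1w0Gy by 1.46 ± 0.18 on the log2 scale (SE, edgeR adjusted p = 0.0284). The study had selected Ass1 in 1w4Gy against 1w0Gy. The tests for age share their 1w0Gy samples with that selection and are not independent of it. The call depended on single samples, since it was kept without 4m0Gy sample 1 or 2 and lost without 1w0Gy sample 1 or 2, and the log2 fold change ran from 1.20 to 1.68 over these 4 cases. When the spread was estimated from all 8 samples, the log2 fold change was the same and the SE was 0.48 (edgeR adjusted p = 0.248, with a range of 6.11e-07 to 0.248 over the 11 alternatives, of which 7 kept the call). Over both treatments the log2 fold change for age was 1.03 ± 0.34 (SE) and did not pass (edgeR adjusted p = 0.154). It was 1.44 without 1w4Gy sample 1, and then passed (edgeR adjusted p = 0.00425).

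The summed levels of 7 of 12 marker lists did not overlap between the sham groups either. Fibroblast markers (6 of 6 in the table) summed to 847 and 1148 CPM in 4m0Gy and to 3061 and 2551 CPM in 1w0Gy, macrophage markers (5 of 5) to 45.03 and 65.2 against 90.7 and 78.2 CPM, and C-cell markers (6 of 6) to 6214 and 7047 against 5720 and 3522 CPM. White fat markers (6 of 6) summed to 180 and 328 against 516 and 412 CPM, and red blood cell markers (3 of 6 in the table) to 299 and 365 against 540 and 573 CPM. The other two were the lymphocyte list, lower in 4m0Gy, and the thyrocyte list, at 215900 and 214800 CPM in 4m0Gy and 185200 and 204800 CPM in 1w0Gy. None of these markers was at 0 in all samples. Their part in the difference of Ass1 was not tested.

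After neonatal irradiation, Ass1 was higher by 1.40 ± 0.45 on the log2 scale (SE), or 2.63-fold. The study selected Ass1 from these same libraries in this comparison, so the value is a description. In the study's quantitative RT-PCR (Q-PCR), with more rats per group, Ass1 was also higher on average, and the change carried no mark of significance. Ass1 was not among the genes the study kept after Q-PCR. The RNA-Seq value rested on 1 sample, being 1.90 without 1w4Gy sample 2 and 0.63 without 1w4Gy sample 1. In the fit across all genes it did not pass (edgeR adjusted p = 0.875), while DESeq2 gave an adjusted p of 0.0155 (range 0.0155 to 0.904 over the 11 alternatives). At 4 months the log2 fold change was 0.58 ± 0.28 (SE, edgeR adjusted p = 0.674). The difference between the responses at the 2 ages was 0.82 ± 0.65 on the log2 scale (1 week minus 4 months) and did not pass (edgeR adjusted p = 0.77). Endothelial markers (6 of 6, none at 0) summed to 898 and 858 CPM in 1w4Gy and 754 and 725 CPM in 1w0Gy, and adipocyte markers (6 of 6, none at 0) to 277 and 313 against 516 and 412 CPM. Parathyroid markers (4 of 4) summed to 2925 and 1956 against 4868 and 3332 CPM, and brown fat markers (5 of 5) to 44.3 and 26.3 against 84.6 and 60.2 CPM, and these 4 of 12 lists were those that did not overlap. Their part in the level of Ass1 was not tested.

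None of the 10 members passed the test for neonatal irradiation with edgeR, against 0.00651% of the 15359 genes tested (1 gene, Cdkn1a). At an unadjusted p under 0.05 there was 1 member, Ass1 (5.68% of all genes), and DESeq2 called 1, again Ass1, with no adjusted p for Trib3 and Chac1. The groups did not overlap for 5 members. Ass1, Trib3, Chac1 and Sesn2 were higher in both 1w4Gy samples (4 of 10, against 17.7% of all genes), and Phgdh was lower (1 of 10, against 17.8%). The median log2 fold change of the members was 0.08, against -2.6e-05 for all genes.

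Irradiation at 4 months gave no call among the members either (0 of 10 with edgeR, against 0.0197% of 15253 genes, and 0 at an unadjusted p under 0.05, against 8.39%). DESeq2 called 0, but gave no adjusted p for 5 of the 10 (Ass1, Ddit3, Trib3, Chac1 and Vldlr). Ass1, Chac1 and Atf4 were higher in both 4m4Gy samples (3 of 10, against 20.9% of all genes) and Trib3 was lower (1 of 10, against 18.7%). The median was 0.03 on the log2 scale, against 0.0091 for all genes. At this age 4 of 12 marker lists did not overlap, all higher in 4m4Gy. C-cell markers summed to 8364 and 7217 CPM in 4m4Gy and 6214 and 7047 CPM in 4m0Gy. Red blood cell markers summed to 381 and 397 against 299 and 365 CPM. Cartilage and trachea markers summed to 252 and 234 against 223 and 215 CPM. The lymphocyte list was the other. The part of these lists in the members' levels was not tested. With both ages in 1 model, 0 members passed (0.0128% of 15684 genes), 2 had an unadjusted p under 0.05 (3.89% of all genes) and DESeq2 called 0, with no adjusted p for Chac1 and Trib3. Those under 0.05 were Ass1, at 0.96 ± 0.34, and Chac1, at 0.75 ± 0.29 (log2 fold change, SE). No member passed the test that the responses of the 2 ages differ (0 with edgeR, against 0 of all genes, and 0 with DESeq2, which gave no adjusted p for Trib3 and Chac1; 0 members and 9.12% of all genes at an unadjusted p under 0.05).

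**Figure D2:**
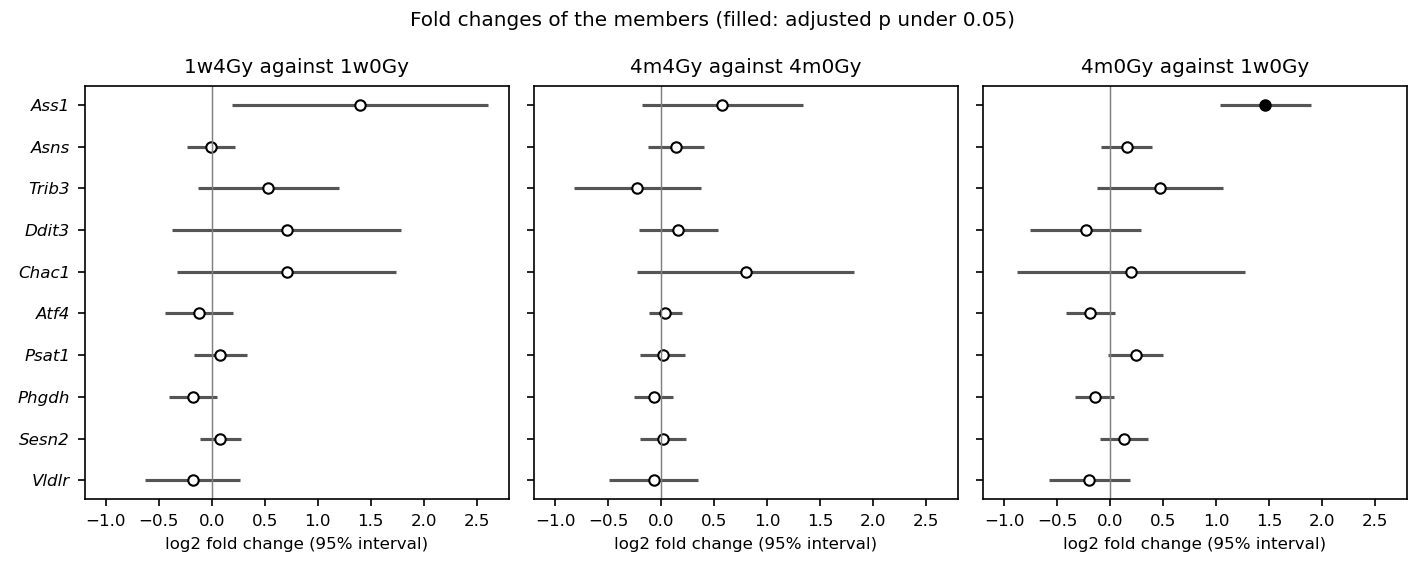
Log2 fold change of each member (horizontal axis) with its 95% interval for neonatal irradiation, irradiation at 4 months and age in sham-irradiated rats, with filled points for an edgeR adjusted p under 0.05. The filled point is Ass1 for age (1.46), and the intervals of Asns, Atf4, Psat1, Phgdh and Sesn2 are narrow and include 0 in all 3 panels.

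Atf4, the transcription factor at the centre of the response, was measured at 183 and 223 CPM in 1w0Gy, 168 and 206 CPM in 1w4Gy, 181 and 175 CPM in 4m0Gy, and 182 and 185 CPM in 4m4Gy. All 4 ranges lay within 168 to 223 CPM, and the 1-week ranges overlapped. The log2 fold change was -0.12 after neonatal irradiation (95% interval -0.44 to 0.20) and 0.04 at 4 months (-0.12 to 0.20).

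Ddit3 encodes CHOP, a transcription factor induced downstream of ATF4. Its level was 18.5 and 26.3 CPM in 1w0Gy, 24.7 and 48.1 CPM in 1w4Gy, 21.8 and 16.3 CPM in 4m0Gy, and 19.5 and 23.1 CPM in 4m4Gy. The highest value belonged to 1w4Gy sample 2, and the other 7 samples lay between 16.3 and 26.3 CPM. The log2 fold change after neonatal irradiation was 0.70 ± 0.39 (SE), and 0.15 without 1w4Gy sample 2. Ddit3 overlaps Mars1, a tRNA synthetase gene, in the RefSeq annotation, and whether the counting used strand is not given in the sources used here. It also overlaps the coding gene LOC134479709, Ass1 overlaps a small nucleolar RNA gene (LOC120102084), and Sesn2 and Vldlr each overlap a long noncoding RNA gene (LOC134487007 and LOC134485215), with the same limit. Mars1 lay between 58.3 and 65.7 CPM in the 8 samples.

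Trib3, a pseudokinase that holds back CHOP and AKT, was measured at 2.86 and 2.32 CPM in 1w0Gy, 3.05 and 4.45 CPM in 1w4Gy, 3.42 and 3.75 CPM in 4m0Gy, and 3.32 and 2.85 CPM in 4m4Gy. Both irradiated samples lay above the sham samples at 1 week and below them at 4 months. The log2 fold changes were 0.53 ± 0.29 and -0.22 ± 0.27 (SE), and neither passed (edgeR adjusted p = 0.888 and 0.873).

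Chac1, an enzyme that degrades glutathione, was measured at 0.59 and 0.58 CPM in 1w0Gy, 0.75 and 1.17 CPM in 1w4Gy, 0.52 and 0.82 CPM in 4m0Gy, and 1.13 and 1.23 CPM in 4m4Gy. Irradiated samples were higher than sham samples of the same age. The 95% interval of the log2 fold change was wide at each age, with bounds of -0.33 and 1.74 for 1w4Gy and of -0.22 and 1.82 for 4m4Gy, and neither change passed (edgeR adjusted p = 0.888 and 0.686).

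Sesn2 encodes sestrin 2, a leucine sensor and inhibitor of mTORC1 that both ATF4 and p53 can induce. It was measured at 64.0 and 68.6 CPM in 1w0Gy, 69.8 and 70.3 CPM in 1w4Gy, 79.2 and 66.0 CPM in 4m0Gy, and 71.6 and 75.8 CPM in 4m4Gy. The log2 fold change was 0.08 at 1 week (95% interval -0.12 to 0.27) and 0.02 at 4 months (-0.20 to 0.24), in the same samples in which Cdkn1a was 2.88-fold and 2.57-fold higher. Vldlr, a receptor for triglyceride-rich lipoproteins, was measured at 9.34 and 8.45 CPM in 1w0Gy, 8.95 and 6.74 CPM in 1w4Gy, 7.24 and 8.27 CPM in 4m0Gy, and 7.57 and 7.25 CPM in 4m4Gy. Its log2 fold changes were -0.18 ± 0.19 and -0.07 ± 0.19 (SE).

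None of the other amino acid synthesis genes passed for irradiation at either age. Asns, asparagine synthetase, was measured at 39.5 and 36.8 CPM in 1w0Gy, 36.2 and 39.6 CPM in 1w4Gy, 46.5 and 38.7 CPM in 4m0Gy, and 50.8 and 43.3 CPM in 4m4Gy. Its log2 fold change at 1 week was -0.01, with a 95% interval of -0.24 to 0.22. Phgdh, which catalyses the first step of serine synthesis, was measured at 105 and 97.0 CPM in 1w0Gy, 95.4 and 82.7 CPM in 1w4Gy, 95.6 and 86.6 CPM in 4m0Gy, and 89.5 and 84.5 CPM in 4m4Gy. The 1w4Gy samples lay below the 1w0Gy samples, with a log2 fold change of -0.18 ± 0.10 (SE, edgeR adjusted p = 0.888). Psat1, the aminotransferase of the same pathway, was measured at 466 and 533 CPM in 1w0Gy, 544 and 512 CPM in 1w4Gy, 644 and 535 CPM in 4m0Gy, and 588 and 605 CPM in 4m4Gy. Its log2 fold changes with irradiation were 0.08 ± 0.11 and 0.01 ± 0.09 (SE).

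For age, the sham groups did not overlap for 6 members. Ass1, Trib3 and Psat1 were higher in both 4m0Gy samples (3 of 10, against 25.4% of all genes), and Atf4, Phgdh and Vldlr were lower (3 of 10, against 24.8%). Over both treatments 0 members passed with edgeR or DESeq2 (4.27% of 15684 genes passed with edgeR), and 3 had an unadjusted p under 0.05 (20.5% of all genes). Beside Ass1, these were Asns at 0.23 ± 0.08 (SE, edgeR adjusted p = 0.131) and Psat1 at 0.21 ± 0.08 (SE, edgeR adjusted p = 0.147) on the log2 scale, both higher in the 4-month groups.

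The rest of the response was read from 127 further genes in 9 lists, of which 122 were in the table and 119 or 120 were tested. None passed for irradiation in the main edgeR fit, and some did under other settings given below. At 1 week, 12 were higher and 5 lower at an unadjusted p under 0.05 (14.3% of the listed genes, against 5.68% of all genes). DESeq2 called 1, Adm2, with no adjusted p for 15 of the 122 genes. At 4 months, 3 were higher and 5 lower (6.72%, against 8.39% of all genes), and DESeq2 called 0, with no adjusted p for 52 of the 122 genes. With both ages in 1 model, 5 were higher and 3 lower (6.67%, against 3.89% of all genes). DESeq2 called 2, Adm2 and Ddit4, with no adjusted p for 23. In the test that the responses of the 2 ages differ, 0 passed with edgeR. There 7 had an unadjusted p under 0.05 (5.83%, against 9.12% of all genes). DESeq2 called 1, Sesn3, in that test, with no adjusted p for 16. The median log2 fold change of the listed genes was 0.04 at 1 week and 0.02 at 4 months.

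Upstream, the eIF2α kinases and their regulators (12 of 12 tested) had a median of -0.02 at 1 week and -0.05 at 4 months. Eif2ak3, the ER stress kinase PERK, differed by -0.04 ± 0.10 and -0.01 ± 0.09, and Eif2ak4, the amino acid sensor GCN2, by -0.02 ± 0.12 and -0.09 ± 0.11 (log2, SE). The widest differences in this list were those of Dnajc3 at 1 week (0.34 ± 0.20) and Ern1 at 4 months (-0.35 ± 0.18). Ern1 encodes IRE1, the sensor of another arm of the unfolded protein response, and is not an eIF2α kinase. Among the partner factors of ATF4 and the C/EBP family (5 of 8 in the table), Cebpb differed by -0.54 ± 0.21 at 1 week and Atf5 by 0.16 ± 0.12 (log2, SE). No gene of either list passed.

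Among 18 other ATF4 targets tested, 13 had a positive log2 fold change at each age, with medians of 0.10 and 0.12. Adm2 encodes adrenomedullin 2, a peptide hormone that relaxes blood vessels. It was measured at 6.10 and 5.44 CPM in 1w0Gy, 14.9 and 11.6 CPM in 1w4Gy, 14.2 and 10.4 CPM in 4m0Gy, and 19.4 and 21.95 CPM in 4m4Gy. The study selected Adm2 from these libraries, and its log2 fold changes with irradiation of 1.20 ± 0.19 and 0.75 ± 0.17 (SE) are given as a description. By Q-PCR in more rats per group, the study found Adm2 significantly higher after neonatal irradiation. After irradiation at 4 months it found no significant change of Adm2. The Q-PCR mean there lay below that of the sham rats, opposite in direction to the RNA-Seq value. The study counts Adm2 among the genes altered specifically by neonatal irradiation. Ddit4, an inhibitor of mTORC1 that p53 also induces, was measured at 29.7 and 35.03 CPM in 1w0Gy, 46.2 and 40.2 CPM in 1w4Gy, 30.7 and 29.9 CPM in 4m0Gy, and 48.5 and 40.6 CPM in 4m4Gy. All 4 irradiated samples lay above all 4 sham samples, as they did for 0.995% of all genes, and the change did not pass at 1 week or at 4 months (edgeR adjusted p = 0.85 and 0.247).

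The enzymes next to the members gave no call for irradiation, and their fold changes varied. The list of serine, glycine and folate-cycle genes (11 tested) had medians of 0.12 and 0.11, and Psph, the last enzyme of serine synthesis, differed by 0.02 ± 0.14 and 0.19 ± 0.16 (log2, SE). Asl, which cleaves the product of Ass1, lay between 24.6 and 28.9 CPM in all 8 samples, with log2 fold changes of -0.04 ± 0.11 and 0.10 ± 0.11 (SE). In the serine list the widest value was that of mitochondrial Aldh1l2 at 4 months (0.89 ± 0.53, log2, SE). The arginine and urea cycle list around Ass1 (15 tested) had medians of -0.0018 and 0.104 and a range of -0.46 to 1.92 at 1 week and -1.36 to 0.55 at 4 months. Cps1 and Otc, which supply citrulline in liver, were low here, at 0.17 to 4.41 CPM (3 to 71 counts) and 0.26 to 1.17 CPM (4 to 19 counts). At 1 week Cps1 differed by 1.92 ± 1.07 and Otc by 1.23 ± 0.50 (log2, SE), and that of Cps1 was 0.32 without 1w4Gy sample 1. Arg2, an arginase, differed by 0.76 ± 0.29 at 1 week (log2, SE), and Otc and Arg2 had an unadjusted p under 0.05 (edgeR adjusted p = 0.875 for each). At 4 months Otc differed by 0.55 ± 0.67 (log2, SE). Slc7a2, a carrier of arginine and other cationic amino acids, was measured at 5.56 and 4.75 CPM in 4m0Gy and 2.79 and 1.23 CPM in 4m4Gy, a log2 fold change of -1.36 ± 0.37 (SE, edgeR adjusted p = 0.397). Among the amino acid transporters (12 of 13 in the table), Slc7a5, the large neutral amino acid carrier, differed by 0.85 ± 0.26 at 1 week (SE, edgeR adjusted p = 0.85), and Slc38a1 by -0.47 ± 0.14 at 4 months (SE, edgeR adjusted p = 0.425). The 20 tRNA synthetases were centred on 0 at both ages, with medians of -0.0018 and 0.0066 and a range of -0.15 to 0.28 at 1 week and -0.07 to 0.11 at 4 months.

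More of the listed genes passed for age than for irradiation. In sham-irradiated rats 4 of 119 listed genes passed (1.06% of all genes did): Niban1 (0.53) and Ndrg1 (0.49), both stress-induced genes, rose with age, and Dnajb9 (-0.76) and Edem1 (-0.79), which act in the disposal of misfolded ER proteins, fell. These 4 calls were lost with the replicate block, with summed transcripts and with limma on log2(TPM + 1). When the spread was estimated from all 8 samples, Niban1 and Ndrg1 kept their calls, and Dnajb9 and Edem1 lost theirs. The count was 0 without 1w0Gy sample 2, 1 (Edem1) without 1w0Gy sample 1, 4 without 4m0Gy sample 1, and 11 (6 higher and 5 lower) without 4m0Gy sample 2. Over both treatments 5 of 120 rose (1.87% of all genes did) and 8 fell (2.39% of all genes did). Those that rose were Ndrg1 (0.51), Adm2 (0.84), Aldh1l1 of the folate cycle (0.96), Slc3a2, the heavy chain of amino acid carriers (0.30), and Gch1, which makes the cofactor of nitric oxide synthase (0.75). The study had selected Adm2 in 1w4Gy against 1w0Gy, so its test for age shares samples with that selection and is not independent of it. Those that fell were the glutamine carrier Slc1a5 (-0.48), the tRNA synthetases Tars1 (-0.34), Gars (-0.27) and Wars1 (-0.39), and the ER genes Edem1 (-0.81), Sel1l (-0.58), Dnajb11 (-0.74) and Hspa5 (-0.92).

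The tRNA synthetases and the ER genes had mostly negative values for age. Of 20 synthetases 19 had a negative log2 fold change over both treatments, with a median of -0.10 (all genes -0.0022), and 3 fell. Of 14 genes listed for the IRE1 and ATF6 arms of the unfolded protein response 14 had a negative value, with a median of -0.68, and 4 fell. Ern1, which encodes IRE1 itself, was in the list of eIF2α kinases and regulators and is not among these 14. It was measured at 9.61 and 8.80 CPM in 1w0Gy and 8.89 and 12.98 CPM in 1w4Gy. In 4m0Gy it was at 12.99 and 10.56 CPM, higher than in 1w0Gy, and in 4m4Gy at 8.23 and 10.23 CPM. Hspa5, the ER chaperone BiP, was measured at 2655 and 3931 CPM in 1w0Gy, 3222 and 4951 CPM in 1w4Gy, 2308 and 1654 CPM in 4m0Gy, and 1710 and 2070 CPM in 4m4Gy, so that the 4-month samples all lay below the 1-week samples, as they did for 6.61% of all genes. Counts of calls over both treatments depended on single samples. They were 2 higher and 1 lower without 4m4Gy sample 1, 2 and 3 without 4m4Gy sample 2, 4 and 1 without 1w0Gy sample 2, and 4 and 2 without 4m0Gy sample 2. With each of the 8 samples left out in turn, the log2 fold change ran from 0.72 to 0.974 for Adm2 and from 0.458 to 0.562 for Ndrg1. That of Edem1 ran from -0.902 to -0.686. The fibroblast markers summed to 2231 to 3061 CPM in the 1-week groups and 847 to 1148 CPM in the 4-month groups. The macrophage (76.6 to 90.7 against 45.03 to 65.2 CPM), red blood cell (463 to 573 against 299 to 397 CPM) and C-cell lists (3294 to 5720 against 6214 to 8364 CPM) did not overlap either, and their part in these differences was not tested.

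**Figure D3:**
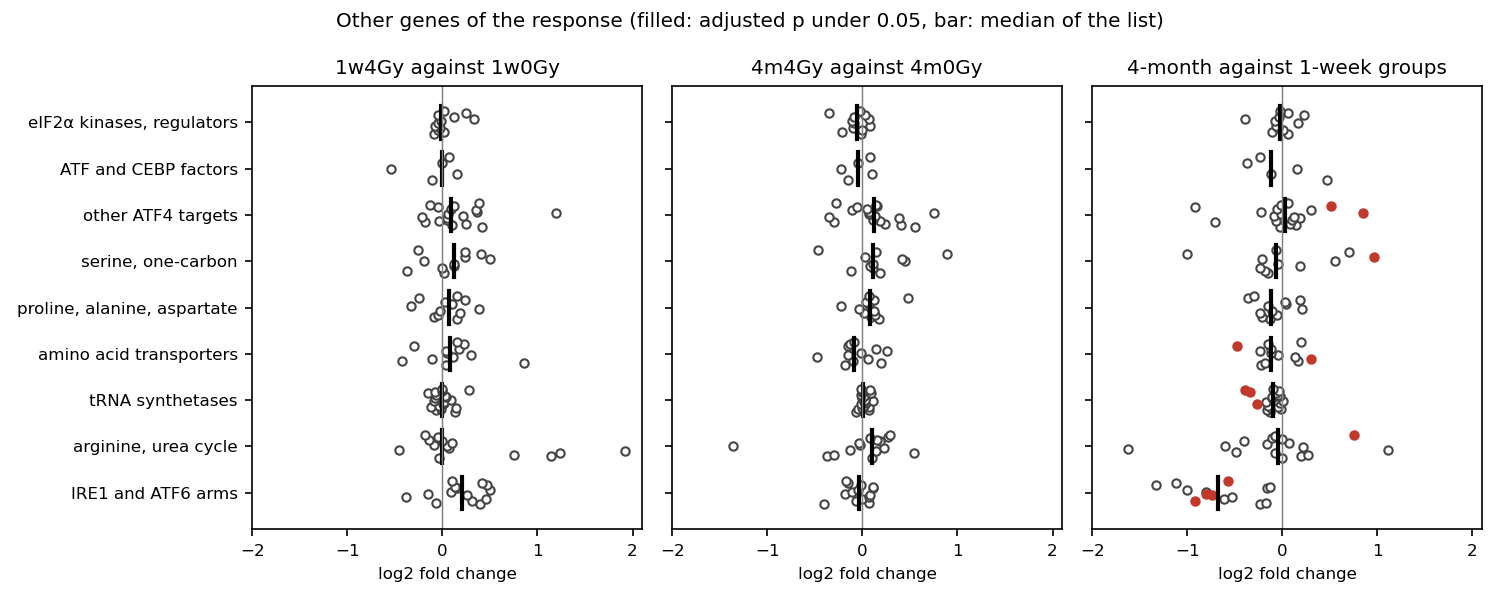
Log2 fold change (horizontal axis) of each gene of the 9 lists (rows) for neonatal irradiation, irradiation at 4 months and age over both treatments, with bars at the list medians and filled points for an edgeR adjusted p under 0.05. No point is filled in the panels of irradiation, and for age the ER genes of the bottom row are shifted to a median of -0.68.

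No shared pattern of the members over the 8 samples passed a test. Of 45 pairs of members, 3 had an unadjusted p under 0.05 in the exact permutation test of Pearson's r on log2 CPM, and 0 passed after adjustment over the 45 pairs, with Spearman's rho too. The closest pair was Psat1 and Sesn2 (r = 0.918, two-sided exact permutation p = 0.00169, adjusted p = 0.0759; rho = 0.833, exact permutation p = 0.0154, adjusted p = 0.346), and r was 0.748 without the 2 samples farthest from the median of Psat1. The r of the deviations from the group means was 0.915 for this pair, and it was not tested, since the exact permutation test of 4 groups of 2 allows no p under 0.125.

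The genes whose pattern over the 8 samples was most like that of Ass1, by Pearson's r on log2 CPM among the named of 15684 genes tested, were Klf11 (0.981), Klf15 (0.977), Ell (0.976), Ppp1r21 (0.972) and Polm (0.961). The points share their libraries and groups, and the values are a description. Klf15, a transcription factor induced by glucocorticoids, was measured at 11.6 and 12.9 CPM in 1w0Gy, 17.8 and 14.2 CPM in 1w4Gy, 16.02 and 16.5 CPM in 4m0Gy, and 18.9 and 16.9 CPM in 4m4Gy. Its order of the samples was close to that of Ass1, with a highest value 1.64-fold its lowest against 4.96-fold for Ass1. No other member was among these 5 genes.

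**Figure D4:**
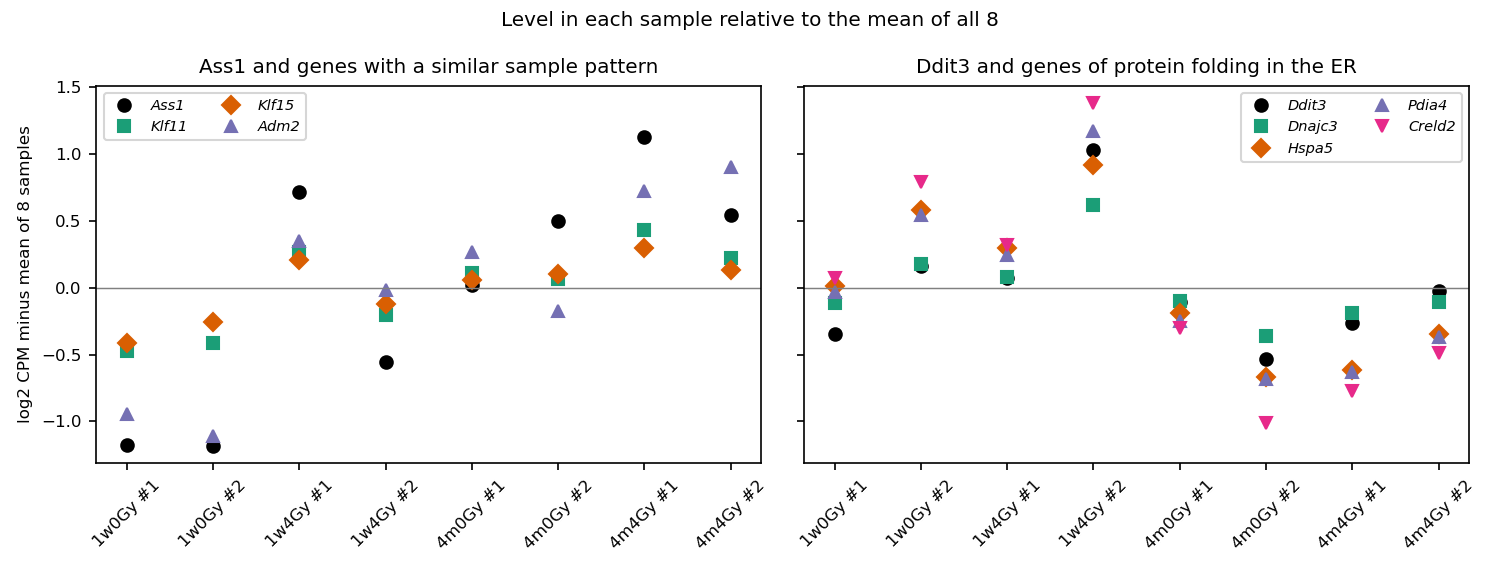
Log2 CPM in each sample (horizontal axis) minus the mean of the 8 samples (vertical axis), for Ass1 with Klf11, Klf15 and Adm2, and for Ddit3 with genes of protein folding in the ER. Ass1 and its companions are lowest in both 1w0Gy samples, while Ddit3 and the ER genes are highest in 1w4Gy sample 2.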

How the data were processed

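RNA-Seq had been done on thyroid RNA of 8 male Wistar rats, 2 in each of 4 groups. Per the submitters' processing notes, reads were aligned with HISAT2 2.2.1 and counted with featureCounts 2.0.0; the genome build and the strand setting are not given in the sources used here. The authors deposited raw counts for each of 54991 transcripts of 30560 genes, with RPKM values and TPM values that the authors made from the same counts. Here, TPM rebuilt from the counts and lengths differed from the deposited TPM by a relative 4.9e-08 at most, and the RPKM columns were not analysed.

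Each gene was taken as its transcript with the highest summed count (5 members had more than 1). Counts were tested with edgeR 4.0.16 (R 4.3.3): TMM normalisation, filterByExpr, quasi-likelihood F test with robust estimation, and Benjamini-Hochberg adjustment over all genes tested, called at 0.05. Simple comparisons used their 4 samples; models with age and irradiation used all 8. The sequencing depth was 14835406 to 18138106 counts per sample. CPM used TMM library sizes, with a prior count of 2 where log2 CPM was correlated. Replicates differed by more than counting noise. The members and gene lists were chosen with earlier results of these data known. Named genes were all members, per list the genes past the threshold (up to 5 per comparison, by p) and the 2 of largest change with irradiation, the 5 most like Ass1, Adm2 and Cdkn1a; other genes were named after their values were seen, namely Eif2ak3, Eif2ak4, Arg2, Psph, Asl and Mars1, and those in the other observations. DESeq2 1.42.0, limma 3.58.1 on log2(TPM + 1), other scalings, filters and transcript choices, a replicate block and leaving out each sample were alternatives. The fit without robust estimation was chosen after seeing the data. List genes not matched by symbol were left out, and 1 thyrocyte marker is not reported here.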

Additional observations from a re-analysis of the deposited data

Results flagged for a closer look

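Trib3 was the member whose irradiated samples lay on opposite sides of the sham samples at the 2 ages, higher in both samples at 1 week (3.05 and 4.45 against 2.86 and 2.32 CPM) and lower in both at 4 months (3.32 and 2.85 against 3.42 and 3.75 CPM). The difference of the responses was 0.751 on the log2 scale (1 week minus 4 months, SE 0.38) and did not pass the interaction test (edgeR adjusted p = 0.596). Of all genes tested, 17.7% were higher without overlap at 1 week and 18.7% were lower without overlap at 4 months. The share of genes that did both was not computed. The samples held 40 to 72 counts of Trib3, and the exact Poisson 95% intervals at these ends were 28.6 to 54.5 and 56.3 to 90.7.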

How the results depend on the processing

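Of 397 values of the members recomputed under other settings, 388 kept their direction and their side of the threshold, with a missing DESeq2 adjusted p read as no call. The number of members called was 1 for neonatal irradiation with DESeq2 (Ass1), and 0 for age in sham-irradiated rats with summed transcripts, with the replicate block, with limma on log2(TPM + 1) and with the spread taken from all 8 samples (Ass1 adjusted p = 0.057, 0.0619, 0.127 and 0.248). Without 1 sample at a time it lay between 0 and 1 for neonatal irradiation (1 without 1w4Gy sample 2), for age in sham-irradiated rats and for age over both treatments (1 without 1w4Gy sample 1), and 0 or 1 pair of members was correlated (1 without 1w4Gy sample 2). The cause was not tested. With limma on log2(TPM + 1) the log2 fold change reversed for Asns at 1 week (0.00269) and for Atf4 (-0.0198), Psat1 (-0.0398) and Sesn2 (-0.0352) at 4 months, with summed transcripts for Psph at 1 week (-0.00524) and with upper-quartile scaling for Eif2ak3 at 4 months (0.00318). Leaving out 1 sample reversed these values. At 1 week the ranges were -0.0768 to 0.0547 for Asns, -0.271 to 0.0343 for Atf4, -0.0101 to 0.18 for Psat1, -0.399 to 0.00796 for Vldlr, -0.166 to 0.0727 for Eif2ak3, -0.109 to 0.0733 for Eif2ak4, -0.0258 to 0.319 for Atf5, -0.0336 to 0.073 for Psph and -0.132 to 0.0708 for Asl. At 4 months they were -0.0442 to 0.386 for Ddit3, -0.12 to 0.152 for Psat1, -0.146 to 0.00043 for Phgdh, -0.114 to 0.153 for Sesn2, -0.164 to 0.0244 for Vldlr, -0.302 to 1.44 for Otc and -0.0872 to 0.0565 for Eif2ak3, and for age in sham-irradiated rats -0.468 to 0.0399 for Ddit3, -0.183 to 0.48 for Chac1 and -0.00446 to 0.255 for Sesn2. Same-numbered samples share only a number (correlation of deviations -0.231 to 0.152 between groups). With the replicate block the listed genes called went from 0 to 1 at 1 week (Adm2) and at 4 months (Ddit4), from 2 higher and 2 lower to 0 for age in sham-irradiated rats, and from 5 and 8 to 6 and 10 for age over both treatments. For age in sham-irradiated rats DESeq2 called 5 higher and 4 lower, and the fit with no filter 5 and 3. For irradiation, the fit with no filter called 2 higher at 4 months (Adm2 and Ddit4) and 1 with both ages in 1 model (Adm2). Which listed genes passed for irradiation also changed with the sample left out. For age over both treatments DESeq2 called 7 higher and 16 lower, and the fit without robust estimation, chosen after seeing the data, 6 and 13. Cdkn1a also lost its call without robust estimation and with limma (adjusted p = 0.0811 and 0.181 at 1 week). Trib3 and Chac1 rested on few counts, 40 to 72 and 8 to 19 per sample, and the part of depth in their spread was not tested.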

Other observations

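Ddit3 had a pattern over the samples close to that of the ER folding genes, which was looked for after the values were seen. Among the named of 15684 genes tested, Dnajc3, which encodes an ER-resident inhibitor of PERK, was in place 2 by Pearson's r with Ddit3 on log2 CPM over the 8 samples (0.976), after Gtse1 (0.994), while r with Atf4 was 0.568. Dnajc3 was measured at 142 and 173 CPM in 1w0Gy, 162 and 236 CPM in 1w4Gy, 143 and 120 CPM in 4m0Gy, and 135 and 142 CPM in 4m4Gy. Of 14 genes of the IRE1 and ATF6 list, 11 were highest in 1w4Gy sample 2, where Ddit3 was highest too, against 15.7% of all genes tested. Their r with Ddit3 ran from 0.479 to 0.933 with a median of 0.839, against a median of 0.0065 over all genes. Hsp90b1, the ER chaperone GRP94, was at 4613 CPM in 1w4Gy sample 2 and 3130 CPM in 1w4Gy sample 1, and Pdia4, a disulfide isomerase, at 1307 and 689 CPM. The points share libraries, groups and the difference with age, and 1 sample carries much of the pattern, so these values are a description.

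Adm2 and Ass1 shared their lowest and highest groups, with both 1w0Gy samples lowest and the 4m4Gy mean highest. Their r over the 8 samples was 0.873, which placed Adm2 at rank 126 of the genes most like Ass1. The study selected both genes from these libraries, and after Q-PCR it kept Adm2 but not Ass1.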
